A study of Mus musculus with 8 samples.

Results

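Osteoblasts, the cells that lay down bone, and the osteocytes that form from them are recognised by a small set of genes for type I collagen, for the enzyme and proteins of mineral, and for their transcriptional control. The 9 genes described here were Col1a1, Col1a2, Sp7, Alpl, Bglap, Bglap2, Dmp1, Phex and Ifitm5, taken by name from the 55471 gene entries of a deposited count table. They were followed through all 8 libraries of a bulk RNA sequencing study of sorted mouse skeletal progenitors.

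The study set Tet1 knockout (KO) mice against wild-type (WT) mice. The 4 groups were KO skeletal stem cells (KO SSC), WT skeletal stem cells (WT SSC), KO bone cartilage stromal progenitors (KO BCSP) and WT bone cartilage stromal progenitors (WT BCSP), all sorted by fluorescence-activated cell sorting from the femurs of neonates aged 3 to 5 days. All samples, WT included, carry the strain name B6;129S4-Tet1tm1.1Jae/J, and the label does not say whether the KO was homozygous. Each group held 2 libraries, which the sample titles number as round 2 and round 1 without saying what a round was. The labels do not say whether libraries came from separate animals or pools, or which surface markers set the gates, so p-values measure only the spread between these samples.

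Type I collagen is a triple helix of 2 Col1a1 chains and 1 Col1a2 chain, and it is the main protein of bone and of fibrous tissue such as the perichondrium. In bone formation the transcription factors Runx2 and then Sp7 commit cells to the osteoblast lineage, Alpl frees phosphate for mineral, and osteocalcin appears late, in mature osteoblasts. Osteocytes buried in the matrix then express Dmp1 and Phex, which restrain the phosphate hormone Fgf23. Growth cartilage of neonates also touches on these genes, since hypertrophic chondrocytes express several bone matrix genes.

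The libraries were those of a cartilage-rich sort, and the type I collagen genes were the one abundant part of the bone set. Depth was 104782544 to 168004119 counts per library, and all 9 genes passed the filter on low counts that left 22153 genes for testing. Levels are given in CPM, counts per 1e6 counts of a library after scaling by the trimmed mean of M values (TMM), at which 1 CPM stood for 110 or more counts. The cartilage collagen gene Col2a1 took 24.7 to 30.6% of all counts, whereas Col1a1 and Col1a2 together took 0.572 to 1.02% and the other 7 genes together 0.00627 to 0.0166%. Per kilobase of exon, Col2a1 stood 79.7 to 110.3 times above Col1a1. Eng, which encodes endoglin, a surface protein known from other sorts of mouse skeletal progenitors, was at 2.53 to 3.89 CPM in SSC and 25.7 to 50.5 CPM in BCSP. Tet1 was at 11.8 and 7.26 CPM in KO SSC (round 2, then round 1), against 19.6 and 15.6 CPM in WT SSC. In BCSP it was at 12 and 10.8 CPM in KO and at 11 and 21.6 CPM in WT, so WT BCSP of round 2 lay within the KO range. The targeted allele is known to remove an internal exon, which makes counts over the whole gene a weak check. In bulk samples such as these, fewer cells of a type and less RNA per cell cannot be told apart.

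**Figure D1:**
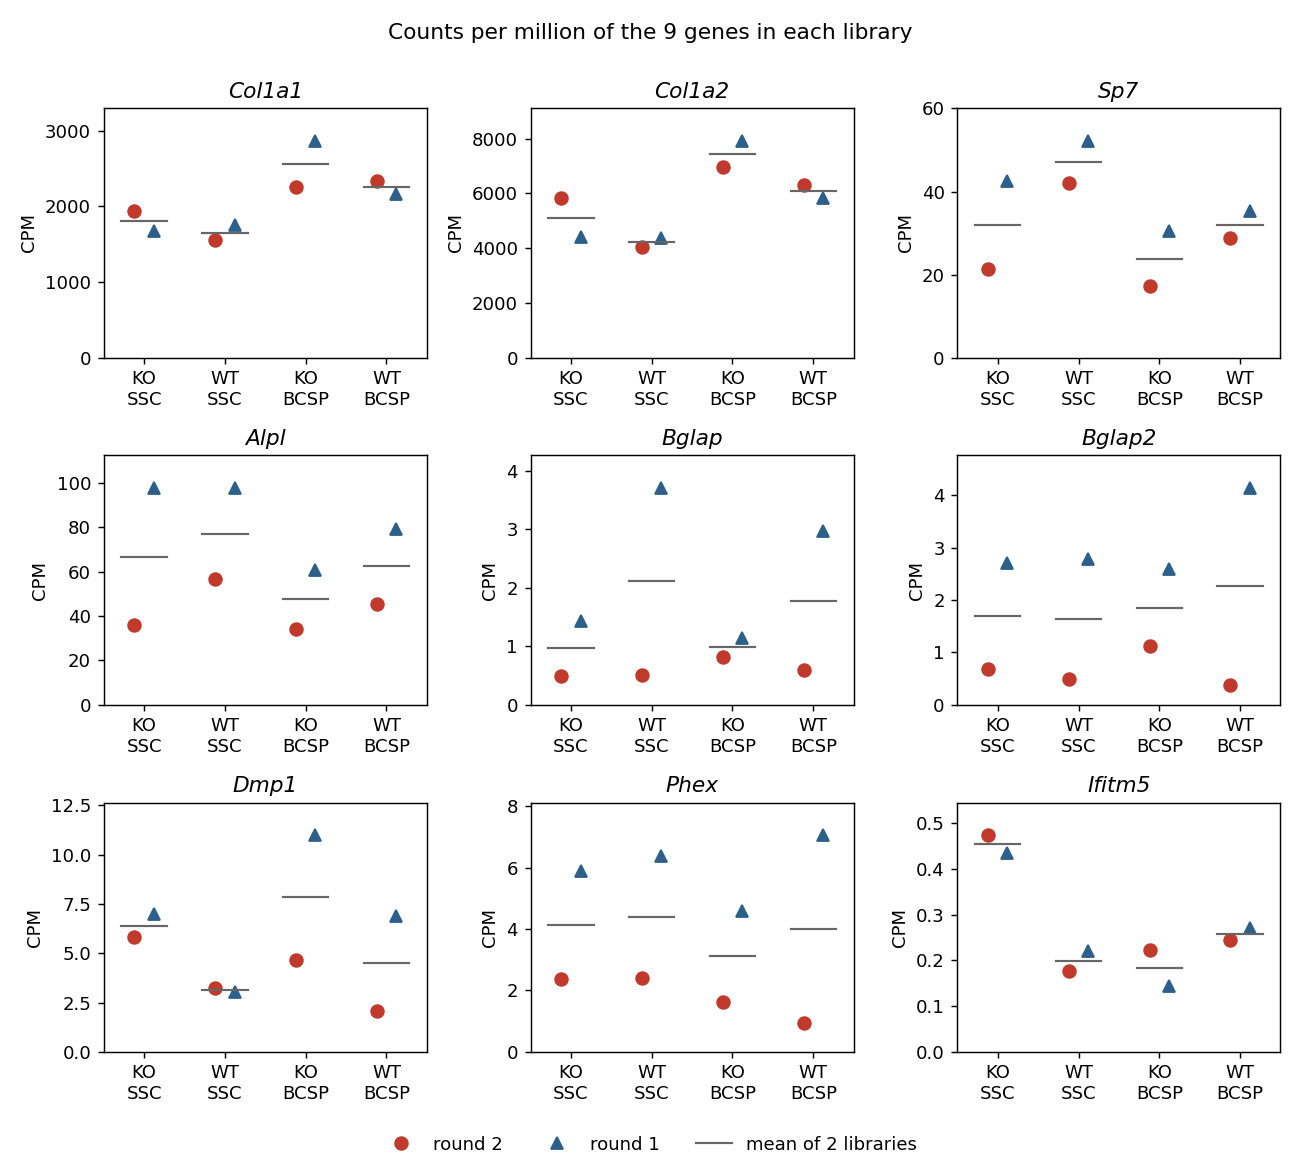
CPM of each of the 9 genes (vertical axes, linear from 0) in the 4 groups, with circles for round 2, triangles for round 1 and a line at the mean of the 2 libraries. Alpl, Bglap, Bglap2 and Phex lie lower in round 2 than in round 1 in all 4 groups without overlap, while the collagen pair lies lower in SSC than in BCSP.

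The genes spanned a wide range of levels. Per kilobase of exon the medians over the 8 libraries were 469.2 CPM for Col1a2 and 313.1 for Col1a1, then 14.6 for Alpl, 9.69 for Sp7, 3.94 for Bglap2, 1.90 for Dmp1, 1.59 for Bglap, 0.558 for Phex and 0.304 for Ifitm5. Neighbours in that order overlapped in their ranges over libraries, from Col1a2 (325.3 to 637.2) and Col1a1 (236.3 to 436.8) to Phex (0.149 to 1.12) and Ifitm5 (0.188 to 0.619), with the exception of Col1a1 and Alpl (8.43 to 24.2), which lay far apart. The least even across libraries was Bglap2, whose highest CPM was 11 times its lowest, and the most even was Col1a1 at 1.85 times. Counts behind these values ran from 18 to 63 for Ifitm5, from 54 to 474 for Bglap2 and from 65 to 486 for Bglap, against 486121 to 992140 for Col1a2.

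Upstream sequence is shown for Bglap and Phex, which passed the test of the rounds, and for Dmp1, which did not, since it is the place where the osteoblast factor Runx2 is known to act on the osteocalcin gene. The windows are the 250 bases before the start of the gene in RefSeq on GRCm38, 5′ to 3′ on the strand of the gene, with capitals marking ACCACA, the core letters of RUNX binding, and TATAAA, the TATA box. Dmp1 has 2 starts and windows in that table, and the one printed is the one that holds a motif. Bglap is shown from chr3:88384467-88384716 on the minus strand, Dmp1 from chr5:104202367-104202616 on the plus strand and Phex from chrX:157415287-157415536 on the minus strand.
Bglap: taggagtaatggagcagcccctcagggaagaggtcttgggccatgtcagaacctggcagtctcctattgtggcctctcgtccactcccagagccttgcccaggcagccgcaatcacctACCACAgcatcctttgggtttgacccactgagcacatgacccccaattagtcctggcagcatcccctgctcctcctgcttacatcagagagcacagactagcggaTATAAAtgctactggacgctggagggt
Dmp1: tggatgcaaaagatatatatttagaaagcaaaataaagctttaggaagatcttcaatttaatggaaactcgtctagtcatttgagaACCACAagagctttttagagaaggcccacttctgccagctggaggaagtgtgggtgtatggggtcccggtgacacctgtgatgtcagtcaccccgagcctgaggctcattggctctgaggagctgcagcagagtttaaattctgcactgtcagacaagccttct
Phex: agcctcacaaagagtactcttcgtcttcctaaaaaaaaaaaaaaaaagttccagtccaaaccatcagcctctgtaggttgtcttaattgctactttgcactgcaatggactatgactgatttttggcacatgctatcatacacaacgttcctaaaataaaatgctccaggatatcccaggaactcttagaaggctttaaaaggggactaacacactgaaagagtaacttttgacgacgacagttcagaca
The Bglap window held ACCACA with its first base at -132 and TATAAA at -27, counted back from the RefSeq start. The Dmp1 window printed held ACCACA at -164, the other Dmp1 window held neither motif, and the Phex window held neither. Of the 8 windows of the 6 genes with an entry, 2 held ACCACA or its reverse complement and 1 held TATAAA, and none of those of Alpl, Col1a2 and Ifitm5 held either. ACCACA or its reverse complement TGTGGT was present in 14% of 32851 promoter windows of the same length, and TATAAA on the strand of the gene in 7.6%. The 2 motifs share no bases in the windows printed. The RefSeq table had entries for 6 of the 9 genes, and Col1a1, Sp7 and Bglap2 were not among them. A match of letters is a description and shows no binding.

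Between the rounds, the alkaline phosphatase gene, both osteocalcin genes and Phex were lower in round 2 than in round 1, while Dmp1, Ifitm5, Sp7 and the type I collagen genes did not pass the test. Of the 9 genes, 4 passed the test of round 2 against round 1 and all 4 were lower: Alpl, Bglap, Bglap2 and Phex. Over all genes tested, edgeR's quasi-likelihood test with Benjamini-Hochberg adjustment called 2.15% at an adjusted p of 0.05 (0.745% lower and 1.4% higher). The same 4 genes did not overlap between the rounds, against a background of 3.61% of genes that were lower without overlap. The median log2 fold change was -0.78 over the 9 genes and 0.01 over all genes tested.

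Col1a1, which encodes the larger share of type I collagen, was at 1944 CPM in round 2 and 1679 CPM in round 1 of KO SSC, and at 1551 and 1748 CPM in WT SSC. In BCSP it was at 2253 and 2866.5 CPM in KO and at 2338 and 2166 CPM in WT. Round 2 was thus higher in 2 groups and lower in the other two, with a log2 fold change of -0.05 ± 0.15 (SE; edgeR adjusted p = 0.94). Col1a2, the partner chain, ran alongside it at 5814 and 4391.5 CPM in KO SSC, 4042 and 4381 CPM in WT SSC, 6948 and 7917 CPM in KO BCSP and 6303 and 5846 CPM in WT BCSP. Its round difference was 0.05 ± 0.15 (edgeR adjusted p = 0.942). The count ratio of Col1a2 to Col1a1 per kilobase stayed between 1.32 and 1.63 in the 8 libraries.

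Sp7, the zinc-finger factor without which osteoblasts do not form in mice, was lower in round 2 in each of the 4 groups but did not pass. It was at 21.4 CPM in round 2 and 42.5 CPM in round 1 of KO SSC, 42.1 and 52.2 CPM in WT SSC, 17.3 and 30.4 CPM in KO BCSP, and 28.7 and 35.4 CPM in WT BCSP. The WT SSC library of round 2 lay above both BCSP libraries of round 1, so the rounds overlapped. The log2 fold change was -0.60 ± 0.15 (edgeR adjusted p = 0.0622), and it passed with DESeq2 (adjusted p = 0.00786, and 1.05e-07 to 0.354 over all alternatives).

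Alpl encodes tissue-nonspecific alkaline phosphatase, which breaks down the mineral inhibitor pyrophosphate. Its level was 36.1 CPM in round 2 and 97.5 CPM in round 1 of KO SSC, 56.5 and 97.7 CPM in WT SSC, 34.0 and 60.9 CPM in KO BCSP, and 45.3 and 79.4 CPM in WT BCSP. Every round 2 library was below every round 1 library, with 43.0 ± 10.3 CPM in round 2 and 83.9 ± 17.6 CPM in round 1 (SD, n = 4 each). Alpl fell by 0.97 ± 0.14 on the log2 scale, to 0.511 times the round 1 level (edgeR adjusted p = 0.00503).

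Bglap and Bglap2 are neighbouring, nearly identical genes for osteocalcin, a calcium-binding bone protein made by mature osteoblasts. Bglap was at 0.489 CPM in round 2 and 1.44 CPM in round 1 of KO SSC, 0.509 and 3.71 CPM in WT SSC, 0.821 and 1.14 CPM in KO BCSP, and 0.586 and 2.97 CPM in WT BCSP. The drop was deepest in both WT groups, where the log2 difference was -2.87 in SSC and -2.34 in BCSP, against -1.56 in KO SSC and -0.48 in KO BCSP, a contrast that was not tested. Over all groups Bglap was 0.285 times the round 1 level, or -1.81 ± 0.40 on the log2 scale (edgeR adjusted p = 0.0339). That call was lost without KO SSC of round 2 (edgeR adjusted p = 0.0605), without WT SSC of round 1 (0.123) and without WT SSC of round 2 (0.132).

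Bglap2 was at 0.677 CPM in round 2 and 2.70 CPM in round 1 of KO SSC, 0.494 and 2.78 CPM in WT SSC, 1.12 and 2.59 CPM in KO BCSP, and 0.377 and 4.14 CPM in WT BCSP. It showed the largest fold of the 9 genes between the rounds, at 0.208 times, or -2.26 on the log2 scale, ± 0.35 (edgeR adjusted p = 0.00569). Of the 150-base windows of Bglap transcripts 31.6% also occur in Bglap2, and of the 50-base windows 74.7%. The split of reads between the pair is therefore uncertain. Their summed level was 0.962 to 1.94 CPM in the round 2 libraries and 3.73 to 7.12 CPM in the round 1 libraries. Bglap3, the third gene of the cluster, shared no 150-base window with either. It did hold 20.5% of the 50-base windows of Bglap and 37.9% of those of Bglap2. Bglap3 did not pass, at -0.38 ± 0.73 (edgeR adjusted p = 0.902), on 14 to 52 counts a library.

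Phex, a peptidase of osteoblasts and osteocytes whose loss causes X-linked hypophosphatemia, was at 2.36 CPM in round 2 and 5.90 CPM in round 1 of KO SSC and at 2.42 and 6.38 CPM in WT SSC. In BCSP it was at 1.62 and 4.60 CPM in KO and at 0.934 and 7.06 CPM in WT. The log2 difference was -1.32 in KO SSC, -1.4 in WT SSC, -1.51 in KO BCSP and -2.92 in WT BCSP. Phex averaged 1.83 ± 0.702 CPM in round 2 and 5.98 ± 1.04 CPM in round 1 (SD, n = 4 each), or -1.77 ± 0.27 on the log2 scale for the fit (edgeR adjusted p = 0.00556).

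Dmp1, an acidic phosphoprotein of osteocytes that seeds mineral, was lower in round 2 in both BCSP groups and in KO SSC, and slightly higher in WT SSC. In BCSP it was at 4.67 CPM in round 2 and 11 CPM in round 1 of KO and at 2.08 and 6.91 CPM in WT. In SSC it was at 5.84 and 6.97 CPM in KO and at 3.26 and 3.04 CPM in WT. The round difference over all groups, -0.78 ± 0.27, did not pass (edgeR adjusted p = 0.204), and whether it differs between cell types was not tested. Ifitm5, an osteoblast membrane protein mutated in a form of brittle bone disease, was the rarest gene, at 0.144 to 0.474 CPM. It had no detectable round difference at this depth (0.05 ± 0.66, edgeR adjusted p = 0.99), and 227 of its exon bases lie in the same-strand gene Gm45717, so its reads may be shared.

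**Figure D2:**
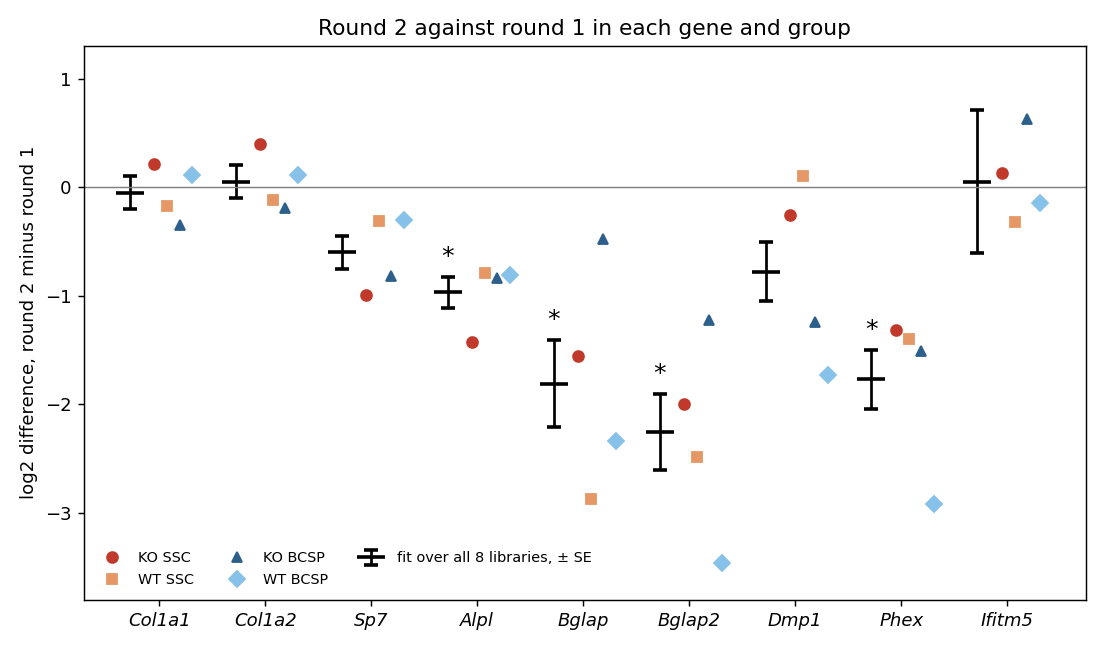
Log2 difference of round 2 minus round 1 for each gene (vertical axis) in KO SSC, WT SSC, KO BCSP and WT BCSP (coloured symbols), with the fitted value over all 8 libraries and its SE in black and an asterisk where the edgeR adjusted p was under 0.05. Alpl, Bglap, Bglap2 and Phex carry an asterisk, and all 4 groups lie below 0 for each of them and for Sp7.

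Alpl, Bglap2 and Phex passed in each of the alternatives that tested the rounds, including each library left out in turn. The number of genes called moved with single libraries: it was 208 to 281 without KO SSC of either round, WT SSC of either round or KO BCSP of round 1, and 4072 without WT BCSP of round 2, against 476 with all 8. Without WT BCSP of round 2, 6 of the 9 genes were called, Sp7 and Dmp1 among them, and 16.5% of all genes. Without both BCSP libraries of round 2 the numbers were 5, Sp7 among them, and 8.07%. Without WT BCSP of round 1 they were 5, again with Sp7, and 2.55%, against 4 and 2.15% with all 8 libraries.

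Other genes of bone moved with the rounds in part. Of 12 osteoblast regulators, 3 fell and none rose, with a median log2 fold change of -0.38 beside 0.01 over all genes. These were the homeobox gene Dlx5 (13.8 CPM in round 2 and 26.5 CPM in round 1, -0.96 ± 0.17, edgeR adjusted p = 0.0109), the transcription factor gene Mef2c (-0.78 ± 0.15, edgeR adjusted p = 0.0196) and the parathyroid hormone receptor gene Pth1r (-0.74 ± 0.17, edgeR adjusted p = 0.0412). Runx2, which acts upstream of Sp7, was at 57.6 CPM in round 2 and 86.8 CPM in round 1 and narrowly missed the threshold (-0.66 ± 0.16, edgeR adjusted p = 0.0538). The number of regulators lower was 1 without KO SSC of either round or WT SSC of round 1, and 2 without KO BCSP of either round. Without WT BCSP of round 2 it was 7, with 2 higher, in a setting that called 16.5% of all genes.

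Of 14 other bone matrix and mineral genes, 4 fell and none rose, with a median of -0.27. Ibsp, which encodes bone sialoprotein, was at 12.5 CPM in round 2 and 42.0 CPM in round 1 (-1.84 ± 0.24, edgeR adjusted p = 0.00254). The osteoblast proteoglycan gene Omd was at 119.1 and 334.7 CPM (-1.49 ± 0.23, edgeR adjusted p = 0.00562). Spp1, the osteopontin gene, was at 71 and 130 CPM (-0.87 ± 0.14, edgeR adjusted p = 0.0076), and Smpd3, a sphingomyelinase gene needed for mineral, at 400.9 and 687 CPM (-0.78 ± 0.14, edgeR adjusted p = 0.0117). Without WT BCSP of round 2 the number lower was 6, with 1 higher, where 16.5% of all genes were called.

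Of 10 osteocyte and phosphate-hormone genes 9 were tested, and 1 rose and 1 fell. The early osteocyte membrane gene Pdpn was at 67.6 CPM in round 2 and 37.6 CPM in round 1 (0.84 ± 0.13, edgeR adjusted p = 0.00602). Mepe, a phosphoprotein gene of the same cluster as Dmp1, was at 0.398 and 1.97 CPM (-2.75 ± 0.63, edgeR adjusted p = 0.0421). Sost, a marker of mature osteocytes, had 0 counts in 6 of the 8 libraries, and Fgf23 did not exceed 0.208 CPM. The call on Mepe is weak: no gene of the list was lower without KO SSC of round 2, WT SSC of either round or KO BCSP of either round, nor on library totals or with limma-voom. Without WT BCSP of round 2, 3 of these genes were higher and 2 lower, where 16.5% of all genes were called. Of 20 genes of type I collagen assembly 1 fell, the crosslinking enzyme gene Lox at 60.5 CPM in round 2 and 118.7 CPM in round 1 (-1.07 ± 0.20, edgeR adjusted p = 0.0166), and the median was -0.16. That number was 0 on library totals and without WT SSC of round 1. Without WT BCSP of round 2 it was 9 lower and 2 higher, where 16.5% of all genes were called.

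**Figure D3:**
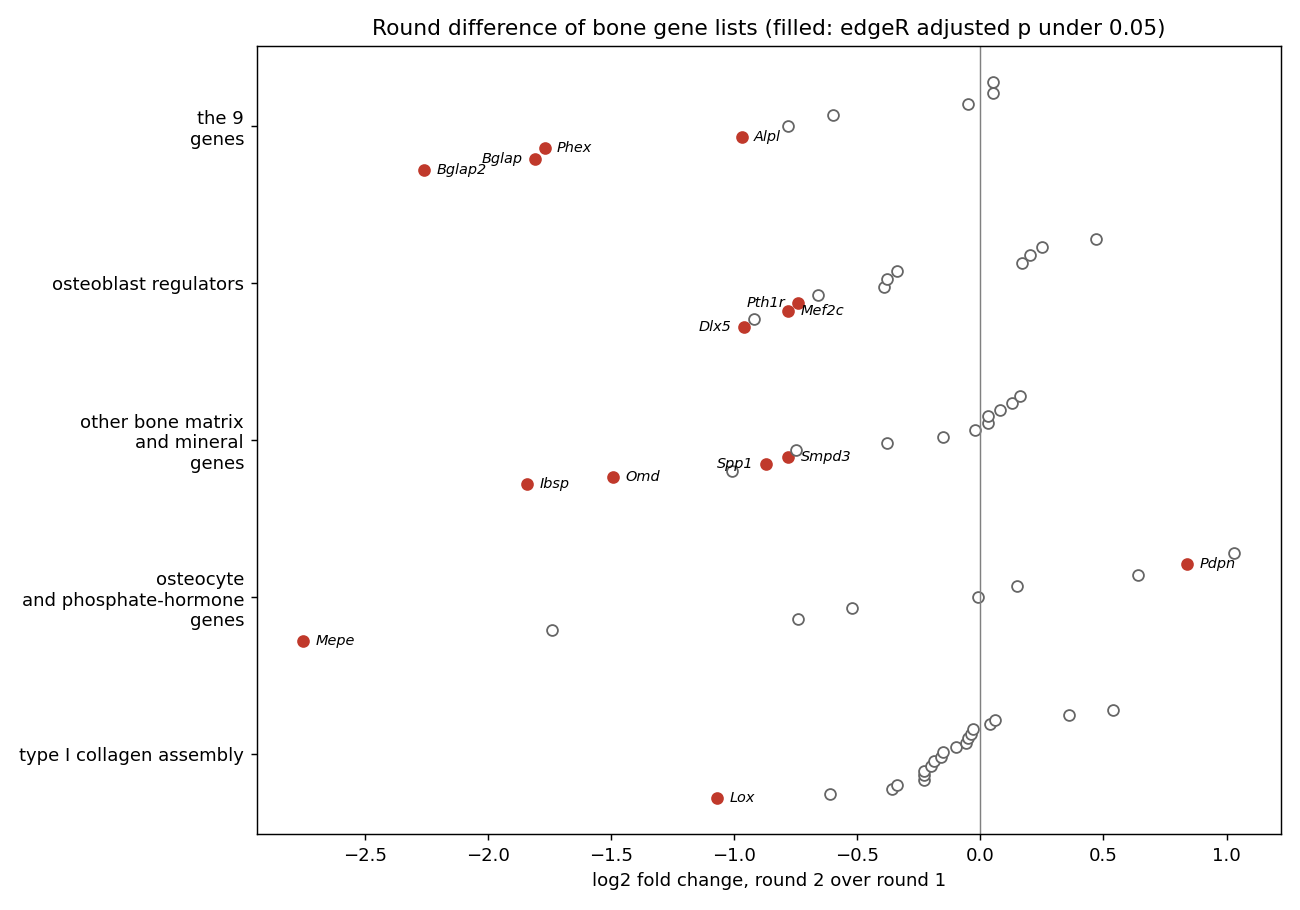
Log2 fold change of round 2 over round 1 (horizontal axis) for the 9 genes and 4 lists of other bone genes, 1 circle a gene, filled and named where the edgeR adjusted p was under 0.05. Filled circles lie left of 0 in all 5 rows except for Pdpn, and most collagen assembly genes lie near 0.

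Markers of other cell types moved with the rounds too, not all in the same direction. All 6 hypertrophic chondrocyte markers had a log2 fold change below 0 and 3 were called, Ibsp, Spp1 and Mmp13, the first 2 of which are also in the bone list. The summed level of that list, led by Col10a1, was 399.4 to 691.2 CPM in round 2 and 467.3 to 1416 CPM in round 1, with no marker at 0 in any library. All 6 neutrophil markers were below 0, 1 of them called, and their summed level was 0.131 to 1.4 CPM in round 2 and 11.2 to 177.6 CPM in round 1. Erythroid markers summed to 2.45 to 5.01 CPM in round 2 and 4.69 to 36.9 CPM in round 1, with 1 of 6 called. Lymphoid markers summed to 0.293 to 0.466 CPM in round 2 and 0.94 to 44.8 CPM in round 1. Osteoclast markers summed to 38.7 to 66.9 CPM in round 2 and 46.5 to 71.2 CPM in round 1, with 0 of 7 tested called by edgeR and 1 at an unadjusted p under 0.05. Chondrocyte markers summed to 284880.5 to 363949 CPM in round 2 and 276359 to 361739 CPM in round 1. Periosteum, perichondrium and tendon markers had 4 of 6 above 0 and 1 called higher. Skeletal muscle markers had 1 called higher but 3 of 4 tested below 0. Pericyte and smooth muscle markers had 1 called higher and 1 lower. Endothelial markers had 3 of 5 tested above 0 and 0 called. Marrow adipogenic stroma markers had 2 of 4 above 0 and 0 called. Surface markers known from other sorts of mouse skeletal progenitors had 5 of 7 below 0 and 1 called lower. Macrophage markers had 2 of 4 tested above 0 and 1 called lower. The part of these cells in the round difference of the bone genes was not tested, and round cannot be told apart from whatever else changed between the 2 sets of libraries.

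Genotype gave no call on any of the 9 genes. In SSC, 0 of 9 passed (edgeR adjusted p = 1 for each) where 0.00451% of all genes did, and 0 of 9 and 1.2% of all genes were at an unadjusted p under 0.05. In BCSP, 0 of 9 passed where 0.00451% did, with 0 of 9 and 6.19% of all genes at an unadjusted p under 0.05. Over both cell types together 0 of 9 passed where 0.0135% did, with 2 of 9, Dmp1 and Sp7, and 7.91% of all genes at an unadjusted p under 0.05. No single gene of the 9 was called by DESeq2 or limma-voom in these comparisons. The median log2 fold change of the 9 genes was 0.04 in SSC, -0.36 in BCSP and -0.12 over both, beside 0.01, 0.01 and 0.02 over all genes tested.

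Dmp1 had the largest fold over both cell types in the direction of KO. It averaged 6.41 ± 0.801 CPM in KO SSC and 3.15 ± 0.158 CPM in WT SSC, and 7.85 ± 4.49 CPM in KO BCSP and 4.49 ± 3.41 CPM in WT BCSP (SD, n = 2 each). KO libraries did not overlap WT libraries in SSC and overlapped them in BCSP. Within a round, KO was above WT in 4 of 4 pairs, by 0.84 (round 2) and 1.2 (round 1) on the log2 scale in SSC and by 1.17 and 0.67 in BCSP. Here and below, a pair is 2 libraries of the same round number, which the labels do not say belong together. The share of all genes with 4 of 4 pairs on the same side was not counted. The log2 fold change over both was 0.91 ± 0.35 (unadjusted p = 0.0205, edgeR adjusted p = 0.614). Dmp1 passed in 1 alternative, edgeR with no filter on low counts (edgeR adjusted p = 0.0367, the lowest of 0.0367 to 0.957 over all alternatives). In BCSP its value of 0.81 ± 0.52 was 0.06 without KO BCSP of round 1 and 0.19 without WT BCSP of round 2.

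Sp7 lay the other way, below WT in 4 of 4 pairs. It averaged 32 ± 15 CPM in KO SSC and 47.2 ± 7.16 CPM in WT SSC, and 23.9 ± 9.29 CPM in KO BCSP and 32.1 ± 4.77 CPM in WT BCSP (SD, n = 2 each). Within a round the log2 difference was -0.98 (round 2) and -0.30 (round 1) in SSC and -0.73 and -0.22 in BCSP, larger in round 2 in both. Over both cell types it was -0.49 ± 0.22 (unadjusted p = 0.0453, edgeR adjusted p = 0.628).

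Alpl, Bglap, Bglap2 and Phex gave no genotype call. Alpl was at -0.30 ± 0.33 over both cell types (edgeR adjusted p = 0.818), and its KO and WT libraries of round 1 were level in SSC at 97.5 and 97.7 CPM. Bglap was at -1 ± 0.62 (edgeR adjusted p = 0.676), with log2 differences within round 1 of -1.37 in SSC and -1.38 in BCSP and within round 2 of -0.06 and 0.49. Bglap2 and Phex had opposite signs in the 2 rounds of BCSP, with differences of 1.57 and 0.79 in round 2 and -0.68 and -0.62 in round 1. The 2 genes stood at -0.12 ± 0.79 (edgeR adjusted p = 0.978) and -0.23 ± 0.63 (edgeR adjusted p = 0.942) over both.

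Type I collagen showed no genotype call. Col1a1 averaged 1811.5 ± 187.5 CPM in KO SSC and 1649.5 ± 139.1 CPM in WT SSC, and 2559.6 ± 434.1 CPM in KO BCSP and 2252 ± 121.5 CPM in WT BCSP (SD, n = 2 each), or 0.16 ± 0.17 over both (edgeR adjusted p = 0.809). Col1a2 averaged 5103 ± 1006 CPM in KO SSC and 4212 ± 239.5 CPM in WT SSC, and 7433 ± 685.3 CPM in KO BCSP and 6074 ± 323.5 CPM in WT BCSP, or 0.28 ± 0.18 over both (edgeR adjusted p = 0.68). KO libraries of Col1a2 were above WT libraries in each cell type without overlap, by as little as 4391.5 against 4381 CPM in SSC.

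Ifitm5 stood in opposite order in the 2 cell types. It was at 0.474 and 0.434 CPM in KO SSC, against 0.177 and 0.221 CPM in WT SSC. In BCSP it was at 0.222 and 0.144 CPM in KO and at 0.244 and 0.271 CPM in WT. The log2 fold changes were 1.18 ± 0.92 and -0.49 ± 0.92, and their difference was not called (1.67 ± 1.3, edgeR adjusted p = 1). A test of the difference of the KO effect between the cell types called 0 of the 9 genes and 0% of all genes by edgeR, with 0 of 9 and 1.27% of all genes at an unadjusted p under 0.05. With 2 libraries a side, groups without overlap were common: 3 of the 9 genes were higher in KO SSC (Col1a2, Dmp1 and Ifitm5) where 14.5% of all genes were. In BCSP 1 was higher (Col1a2) where 16.9% were and 1 lower (Ifitm5) where 16.4% were.

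**Figure D4:**
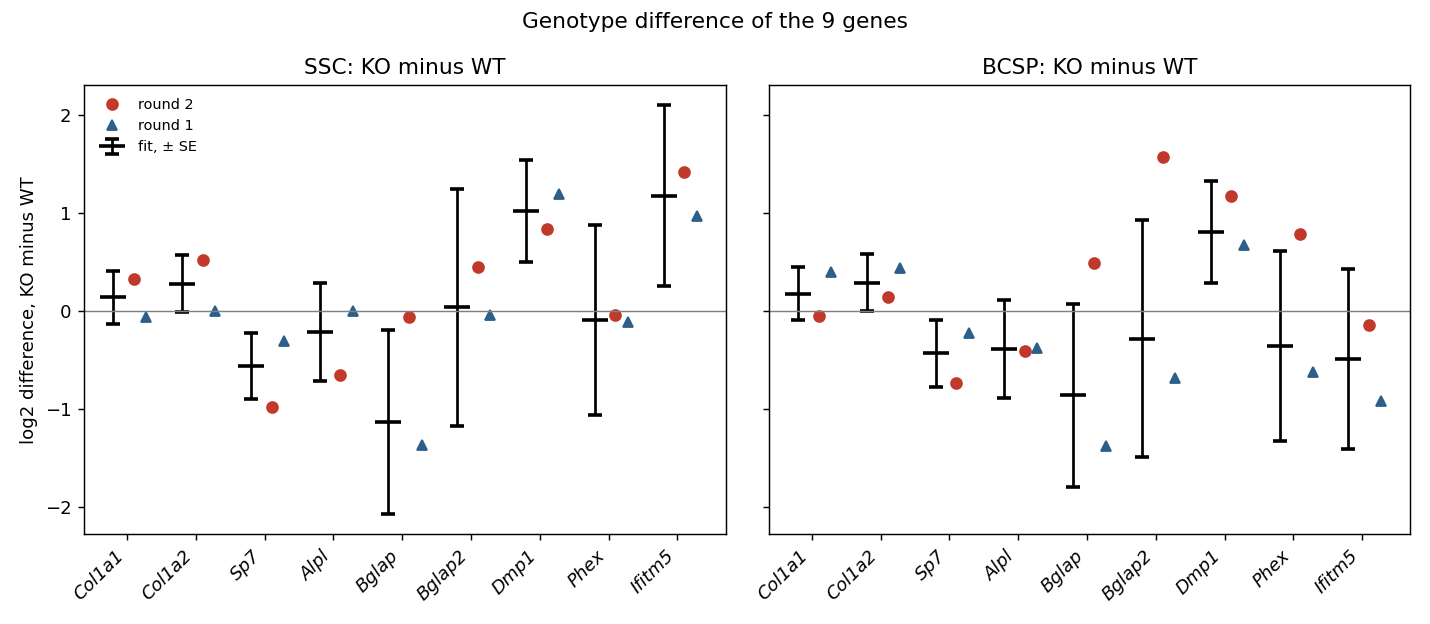
Log2 difference of KO minus WT (vertical axis) for the 9 genes in SSC (left) and BCSP (right), with circles for the pair of round 2, triangles for the pair of round 1 and the fitted value with its SE in black. Dmp1 lies above 0 and Sp7 below 0 in all 4 pairs, while Bglap2 and Phex lie on both sides of 0 in BCSP.

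The other bone genes gave no genotype call either. The smallest p-values over both cell types among the 4 lists belonged to the phosphate transporter gene Slc20a1, at 202.7 CPM in KO and 131.9 CPM in WT (0.62 ± 0.19, edgeR adjusted p = 0.596), and to the hyaluronan receptor gene Cd44, at 10.5 and 5.58 CPM (0.89 ± 0.30, edgeR adjusted p = 0.611). Foxo1, a forkhead factor gene, was at 53.2 and 39.3 CPM (0.43 ± 0.16, edgeR adjusted p = 0.614). P4ha2, a collagen prolyl hydroxylase gene, was at 183.0 and 248.1 CPM (-0.44 ± 0.17, edgeR adjusted p = 0.614). List medians over both were -0.17 for regulators, 0.07 for other matrix and mineral genes, -0.01 for osteocyte genes and -0.15 for collagen assembly. Among markers of other cells, 6 of 6 of the periosteum, perichondrium and tendon list were above 0 in KO over both cell types with none called, and it summed to 239 to 356.6 CPM in KO and 167.1 to 298.8 CPM in WT. Other lists also leaned to 1 side with none called. Endothelial and pericyte and smooth muscle markers each had 5 of 5 tested above 0. Of chondrocyte markers 8 of 9 were below 0, and of lymphoid markers 3 of 3 tested. Their part in the levels of these genes was not tested. Across 12636 genes, log2 fold changes of KO over WT had a Spearman correlation with exon length of 0.209 in SSC and 0.401 in BCSP, as a description, and those of the rounds one of 0.0464. Exon length runs from 0.471 kilobases for Bglap2 and 0.618 for Bglap to 12.426 for Col1a2.

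Between the cell types, type I collagen transcripts were at lower levels in SSC than in BCSP, a difference without overlap that did not pass over all genes. Col1a1 averaged 1730.5 ± 164.1 CPM in SSC and 2406 ± 315 CPM in BCSP (SD, n = 4 each), a log2 fold change of -0.47 ± 0.17 (unadjusted p = 0.0159, edgeR adjusted p = 1). Col1a2 averaged 4657 ± 788.1 CPM in SSC and 6754 ± 898.1 CPM in BCSP, or -0.54 ± 0.18 (unadjusted p = 0.0108, edgeR adjusted p = 1). These 2 of the 9 genes were lower without overlap where 1.05% of all genes were, and SSC was lower in all 4 pairs of the same genotype and round for both. The share of all genes with all 4 such pairs on the same side was not counted. On library totals without TMM scaling both overlapped. Of all genes, 0.00451% passed in this comparison and 3.71% were at an unadjusted p under 0.05.

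Sp7 lay higher in SSC, at 39.6 ± 13 CPM against 28 ± 7.67 CPM in BCSP (0.49 ± 0.22, unadjusted p = 0.0474, edgeR adjusted p = 1), and in 4 of 4 pairs, by 0.31 to 0.56 on the log2 scale. The other 6 genes had adjusted p of 1 by edgeR, with log2 fold changes from -0.40 ± 0.34 for Dmp1 to 0.47 ± 0.66 for Ifitm5. Runx2 and the homeobox gene Dlx3 had SSC levels of 86.8 and 5.31 CPM against BCSP levels of 57.6 and 3.08 CPM (0.59 ± 0.24 and 0.80 ± 0.28, edgeR adjusted p = 1 for both). The fibrillar collagen genes Col5a2 and Col3a1 and the procollagen processing gene Pcolce lay on the side of type I collagen, at -0.55 ± 0.17, -0.55 ± 0.19 and -0.51 ± 0.17 (edgeR adjusted p = 1 for each). None of the genes of the 4 bone lists passed by edgeR here, with 3 regulators, 1 osteocyte gene and 3 collagen assembly genes at an unadjusted p under 0.05. The periosteum, perichondrium and tendon markers, led by Thbs2, had 6 of 6 below 0 and summed to 167.1 to 259.4 CPM in SSC and 279 to 356.6 CPM in BCSP. Hypertrophic chondrocyte markers had 5 of 6 above 0 and summed to 401 to 1416 CPM in SSC and 399.4 to 755.4 CPM in BCSP. Other lists also leaned to 1 side with none called. Neutrophil markers had 6 of 6 above 0, and macrophage and skeletal muscle markers each had 4 of 4 tested above 0. The part of these cells in the differences was not tested.

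**Figure D5:**
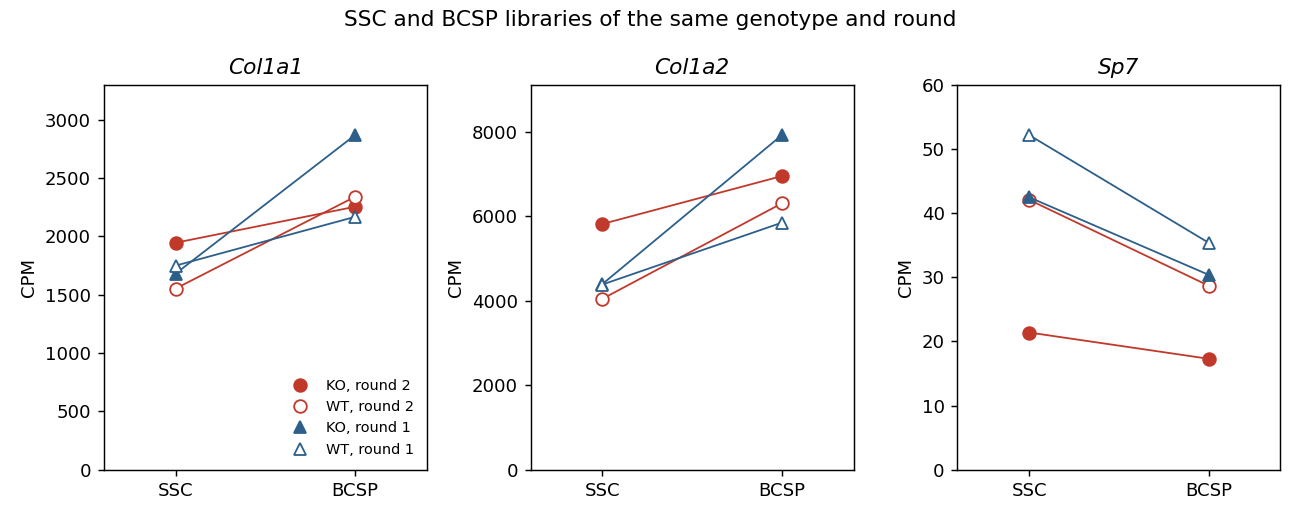
CPM of Col1a1, Col1a2 and Sp7 (vertical axes, linear from 0) in SSC and BCSP, with a line joining the 2 libraries of the same genotype and round. SSC lies below BCSP in all 4 pairs for the collagen genes and above it in all 4 for Sp7.

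Set against all genes of at least 1 CPM, the bone genes did not share 1 profile over the libraries. The measure of likeness was the root mean square difference between centred log2 CPM profiles over 8 libraries, compared with 12639 other genes and given as a description. Closest to Col1a1 were Mxra8 (0.0873), Agpat3 (0.0887), Col1a2 (0.0952), Mpv17 (0.102) and Endod1 (0.105). Closest to Sp7 were Nrm (0.125), Nog (0.147), Ppp1r7 (0.164), Dnajc22 (0.176) and Slc35g1 (0.177), with Alpl at rank 40 (0.244). Closest to Bglap were Car3 (0.447), Tmsb4x (0.482), Sema3d (0.492), Fanca (0.493) and Gm10925 (0.509). Bglap2 was at rank 14, Phex at rank 25, Alpl at rank 64 and Sp7 at rank 597. From Bglap, the rest lay at ranks 7060 (Col1a1) to 10155 (Ifitm5). From Col1a1, by contrast, the mineral genes lay among the most distant, with Bglap2 at rank 12574. Profiles were centred but not scaled, so distance from an even gene also grows with how much the other gene varies. The highest CPM was 1.85 times the lowest for Col1a1 and 11 times for Bglap2. Without 1 library, 2 to 4 of the 5 nearest stayed for Col1a1 and for Sp7, and 2 to 5 for Bglap.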

How the data were processed

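The authors deposited whole-number counts per gene for 8 libraries, with no normalization. The submitters' processing notes list the tools STAR, featureCounts and DESeq2 and the build mm10, while the name of the table mentions htseq. Which program counted is therefore not settled, and the annotation release and strand of counting are not given in the sources used here. Column names SCC and BCP were read as SSC and BCSP, and 0 columns were left unused. Of 55471 entries, 55230 matched GENCODE M21 (GRCm38), from which exon lengths were taken, and 22325 had 0 counts throughout.

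Counts were filtered (minimum count 10, minimum total 15) and TMM-scaled, and tested with edgeR 4.0.16 (R 4.3.3) by a robust quasi-likelihood fit to all 8 libraries. The models were 1 mean per group (residual degrees of freedom 4), genotype plus cell type (5), and these plus round (4). Benjamini-Hochberg adjustment ran over 22153 genes at a threshold of 0.05. The tested genes held 99.9854% of counts, and common biological variation was 0.525. The additive models treat SSC and BCSP libraries as independent samples, which the labels do not settle. Log CPM used a prior count of 2. Groups were called without overlap where every library of one side was above or below every library of the other. The scripts were tested on simulated counts. DESeq2 1.42.0, limma 3.58.1 (voom), other scalings, no filter, the round as a block and each library left out were the alternatives.

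The members and lists were chosen with earlier results of these data known, and 1 gene of the regulator list is not reported here. Named genes were the 9 members, from each list those that passed and up to 4 with the smallest p, Tet1, the 5 genes nearest in profile to Col1a1, Sp7 and Bglap, and markers that moved with a result. Whether same-numbered libraries deviate together was checked by the correlation of round differences between groups, given with the alternatives.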

Additional observations from a re-analysis of the deposited data

Results flagged for a closer look

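Ifitm5 was picked out because its KO and WT libraries stood in opposite order in the 2 cell types, both KO libraries above both WT libraries in SSC and both below in BCSP. The difference between the 2 log2 fold changes, SSC minus BCSP, was 1.67 ± 1.3 (edgeR adjusted p = 1), and 1.37 to 1.97 when 1 library was left out. It rests on 63, 48, 23 and 29 counts in SSC (KO of round 2 and round 1, then WT of round 2 and round 1) and on 27, 18, 35 and 31 counts in BCSP.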

How the results depend on the processing

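All 5 comparisons other than the rounds kept 0 calls among the 9 genes in each setting run, apart from Dmp1 for genotype over both cell types with no filter on low counts. For the rounds, Alpl, Bglap2 and Phex kept their calls throughout, and Bglap lost its call on library totals (-1.85, edgeR adjusted p = 0.0563, and 4.74e-06 to 0.132 over all alternatives). Sp7 and Dmp1 were also called with no filter (edgeR adjusted p = 0.00635 and 0.0134). Counts of all genes called moved more. With no filter they were 4 (KO in SSC), 38 (KO in BCSP), 234 (KO over both), 66 (SSC against BCSP) and 1062 (rounds), and with DESeq2 9, 20, 103, 39 and 1128. KO over both gave 1 on library totals and 1 with limma-voom. Without both BCSP libraries of round 2, a setting added after seeing the data, the counts were 11 (KO over both), 36 (SSC against BCSP) and 1932 (rounds). With 1 library left out, they ran from 1 to 4 (KO in SSC), 1 to 2 (KO in BCSP), 1 to 12 (KO over both), 1 to 3 (SSC against BCSP) and 208 to 4072 (rounds). On library totals, 2 of the 9 genes were higher and 0 lower without overlap in KO BCSP, and 0 were lower in SSC against BCSP. The shares of all genes on that scaling are not given here. With TMM they were 16.9% higher and 16.4% lower in KO BCSP, and 1.05% lower in SSC against BCSP.

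Signs turned in values that did not pass. With limma-voom, Bglap2 and Phex were 0.58 and 0.20 for KO in BCSP and 0.37 and 0.02 over both, and Bglap was -0.02 in SSC against BCSP. Without both BCSP libraries of round 2, Bglap and Phex were -0.38 and -0.43 in SSC against BCSP, and Col1a1 and Ifitm5 were 0.03 and -0.03 between rounds, where Ifitm5 was also -0.03 on library totals. With 1 library left out, KO in SSC ran from -1.1 to 0.32 (Alpl), -2.11 to 0.91 (Bglap), -1.28 to 1.77 (Bglap2) and -0.90 to 0.77 (Phex). KO in BCSP ran from -0.87 to 0.07 (Alpl), -1.6 to 0.74 (Bglap), -1.16 to 2.3 (Bglap2) and -1.31 to 1.73 (Phex). KO over both ran from -0.65 to 0.83 (Bglap2) and -0.57 to 0.56 (Phex). SSC against BCSP ran from -0.67 to 0.65 (Bglap), -0.86 to 0.64 (Bglap2), -0.64 to 0.05 (Dmp1) and -0.06 to 1.06 (Phex). The rounds ran from -0.13 to 0.03 (Col1a1), -0.05 to 0.11 (Col1a2) and -0.25 to 0.35 (Ifitm5). The cause of these shifts was not tested.

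With the round as a replicate block, the counts of all genes called were 2 (KO in SSC), 3 (KO in BCSP), 2 (difference of the KO effects), 28 (KO over both) and 2 (SSC against BCSP), and no call on the 9 genes was gained or lost. Bglap2 was then 0.38 for KO in BCSP and 0.29 over both, and Bglap -0.09 in SSC against BCSP. Round differences of 12639 genes correlated at 0.559 to 0.645 among KO SSC, WT SSC and KO BCSP. With WT BCSP they correlated at 0.162 (KO SSC), 0.273 (WT SSC) and 0.059 (KO BCSP). Same-numbered libraries thus deviated together in the first groups and less so in WT BCSP. The labels do not say whether the numbers pair the samples. The main genotype and cell type fits held no term for round, which the block setting adds. Where a side loses 1 of its 2 libraries, the lone one is assumed to vary like the others. Depth limits Ifitm5 most, at 18 to 63 counts a library.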
